A study of Mus musculus with 6 samples.

Results

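The genes described here are 46 mouse genes that drive chromosomes through mitosis, drawn from 22032 gene rows of an RNA-seq matrix of sorted chondrocytes. They were listed by function, as mitotic cyclins and kinases, spindle checkpoint, centromere, kinetochore, mitotic kinesin, cytokinesis and condensin genes. Each of the 46 was found by its symbol. The study compared 3 embryonic samples with 3 adult samples of LIN-ALP-BMPR1B+ cells taken from the knee. BMPR1B is a bone morphogenetic protein receptor used to enrich chondrocytes, ALP is alkaline phosphatase, and LIN stands for blood and endothelial lineages. The embryonic cells came from embryos that the paper places at embryonic day 16.5, where the labels write 16.5 weeks. The paper names no strain for the embryos. The adult cells came from 2 month old male B6 mice and were negative for CD31, CD45, Ter119 and ALP. No transgene or treatment is named for either group. The sex of the embryos and the number of animals behind each sample are not given in the sources used here. The series describes the samples as biological replicates, and the p-values below measure the spread between them.

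Cells enter mitosis when cyclin A and cyclin B activate CDK1, together with the Aurora and Polo-like kinases. Kinetochores, which assemble on centromeres marked by the histone variant CENP-A, then attach chromosomes to spindle microtubules under the watch of the spindle checkpoint, kinesins and the chromosomal passenger complex organize the spindle and the final cleavage, and condensin compacts the DNA. Most of these genes are transcribed late in the cell cycle and are low in resting cells. Many carry CCAAT boxes, which bind NF-Y, and a cell cycle homology region, which binds the MuvB core of the DREAM complex and of the complexes with B-MYB and FOXM1. Chondrocytes of the growing skeleton divide, whereas articular chondrocytes of grown animals divide rarely.

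The upstream sequence of 6 of these genes is printed to show where the CCAAT box and the cell cycle homology region lie, in genes that fell and in *Hjurp*, which did not pass the test. They are the 6 with the highest embryonic level among members whose window of 250 bases before to 50 after the start held both. Each line runs 5' to 3' towards the transcription start, from RefSeq on GRCm38.p6. Capitals mark the CCAAT box (CCAAT, or ATTGG on the other strand) and the cell cycle homology region (TTTGAA, or TTCAAA on the other strand). *Cdk1* lies at chr10:69352913-69353112 on the minus strand, *Prc1* at chr7:80294251-80294450 on the plus strand, *Top2a* at chr11:99024190-99024389 on the minus strand and *Mki67* at chr7:135716380-135716579 on the minus strand. *Bub1b* lies at chr2:118598011-118598210 on the plus strand, and *Hjurp* at chr1:88277634-88277779 on the minus strand, cut at 146 bases where GENCODE begins the gene. *Prc1* shows 5 letters of its TTTGAA, the last of which is the first transcribed base.
Cdk1: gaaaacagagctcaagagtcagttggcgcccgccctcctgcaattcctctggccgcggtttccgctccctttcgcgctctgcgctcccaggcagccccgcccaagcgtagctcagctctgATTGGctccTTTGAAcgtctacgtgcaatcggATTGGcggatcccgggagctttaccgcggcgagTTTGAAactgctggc
Prc1: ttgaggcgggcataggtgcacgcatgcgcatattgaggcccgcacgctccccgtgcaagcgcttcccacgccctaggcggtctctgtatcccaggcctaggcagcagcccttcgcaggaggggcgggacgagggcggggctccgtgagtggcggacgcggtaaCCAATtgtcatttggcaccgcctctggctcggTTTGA
Top2a: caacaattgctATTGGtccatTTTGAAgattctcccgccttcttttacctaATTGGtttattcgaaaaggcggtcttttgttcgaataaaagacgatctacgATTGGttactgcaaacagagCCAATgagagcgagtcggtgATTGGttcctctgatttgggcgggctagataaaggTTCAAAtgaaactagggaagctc
Mki67: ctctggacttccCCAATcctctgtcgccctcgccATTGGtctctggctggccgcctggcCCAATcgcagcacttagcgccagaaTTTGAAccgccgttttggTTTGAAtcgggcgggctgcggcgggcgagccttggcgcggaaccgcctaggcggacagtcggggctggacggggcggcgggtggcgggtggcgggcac
Bub1b: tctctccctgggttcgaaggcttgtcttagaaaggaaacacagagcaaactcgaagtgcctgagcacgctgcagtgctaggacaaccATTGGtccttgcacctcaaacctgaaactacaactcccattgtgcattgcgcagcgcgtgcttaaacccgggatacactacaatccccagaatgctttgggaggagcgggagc
Hjurp: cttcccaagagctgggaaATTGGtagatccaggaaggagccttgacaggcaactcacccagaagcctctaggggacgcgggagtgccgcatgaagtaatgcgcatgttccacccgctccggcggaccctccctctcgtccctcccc
In *Cdk1* the downstream TTTGAA began 15 bases before the RefSeq start, 33 bases after the nearest CCAAT box. *Top2a* showed the same arrangement at 23 bases before the start with a distance of 35. GENCODE begins *Cdk1* further upstream, at position 69352938, so by GENCODE the downstream TTTGAA of *Cdk1* lies inside the gene. *Mki67* held 2 copies of TTTGAA, and the nearer of them began 98 bases before the start. In *Bub1b* and *Hjurp* the TTTGAA lay after the start, 40 and 19 bases in, and is not shown.

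In embryonic chondrocytes the mitotic genes were expressed throughout, and in adult chondrocytes most were reduced to a small remainder. Values are in TPM, a transcript abundance scaled for gene length and for the sample total, so that levels can be compared between genes. No member was at 0 in an embryonic sample, the embryonic means ran from 2.65 to 240.3 TPM with a median of 28.6 TPM, and 38 of the 46 reached 10 TPM. In the adult samples 11 reached a mean of 10 TPM. By limma on log2(TPM + 1), with Benjamini-Hochberg adjustment over 13125 tested genes and a threshold of 0.05, 40 of the 46 were lower in adult chondrocytes and 0 were higher. Among all tested genes 21.4% were lower and 23.9% higher. At an unadjusted p under 0.05, 41 members were lower and 0 higher.

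In 41 of the 46 members every adult value was below every embryonic value, against 25.9% of all tested genes. In 1 member, *Zwint*, every adult value was above every embryonic value, against 30.7%. The stages overlapped in *Aurka*, *Hjurp*, *Cenpk* and *Cenpf*. The median log2 fold change of the members, adult minus embryonic, was -2.87, where that of all tested genes was 0.16, and 36 members fell below -2, against 7.6% of tested genes. Differences on this scale understate the change of low genes. All 46 members passed the filter on low values, which asked for 1 TPM or more on average, 7 of them (*Ttk*, *Aurkb*, *Cenpn*, *Knstrn*, *Kif4*, *Kif15* and *Ncapg*) through embryonic values alone, since their adult mean was under 1 TPM. In bulk RNA, fewer cells with a transcript and less of it per cell cannot be told apart.

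**Figure D1:**
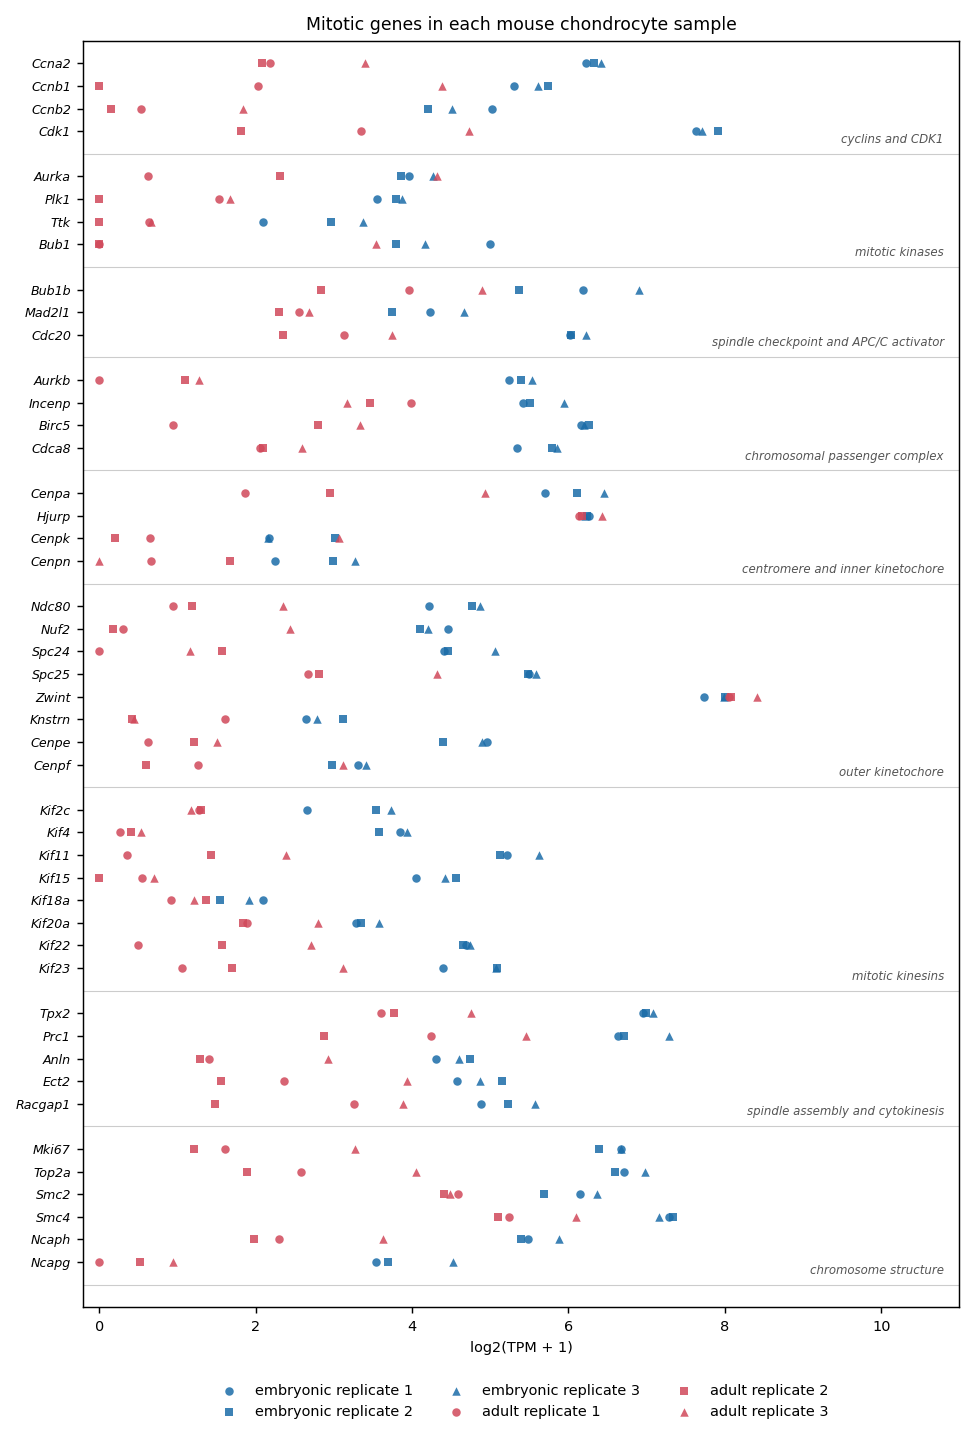
Level of the 46 mitotic genes in each sample, as log2(TPM + 1) on the horizontal axis, with genes in rows grouped by role, embryonic samples in blue and adult samples in red, and the symbol marking the replicate. The stages are apart in most rows. *Hjurp* and *Zwint* have all 6 samples close together, and adult replicate 3 (red triangle) is the rightmost adult sample in 39 rows.

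The cyclins and CDK1 fell in all 4 members tested. *Cdk1*, the kinase that starts mitosis (chr10:69335146-69352938, minus strand, GRCm38), stood at 197, 241 and 209 TPM in embryonic chondrocytes and at 9.20, 2.53 and 25.5 TPM in adult ones. The adult values were 1.17% to 11.8% of the embryonic mean, and the log2 fold change was -4.46 ± 0.59 (SE, limma adjusted p = 0.000441). *Ccna2*, cyclin A2, had 73.7, 79.1 and 84.3 TPM against 3.53, 3.22 and 9.57 TPM, a set of values with no overlap between stages. *Ccnb2*, a B-type cyclin, had 31.6, 17.4 and 21.9 TPM against 0.444, 0.115 and 2.58 TPM. *Ccnb1*, the main mitotic cyclin, had 38.4, 52.3 and 48.0 TPM against 3.08, 0 and 19.8 TPM. Its adult samples were thus the most uneven of the role, with a log2 fold change of -3.41 ± 0.90 (SE, limma adjusted p = 0.0139). Without embryonic replicate 2 or 3 the call of *Ccnb1* was lost, its adjusted p reaching 0.0585. Of its longest coding transcript, 51.95% aligned to other genes at 95% identity or more, chiefly a processed pseudogene, so its level is uncertain.

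Of the mitotic kinases 3 of 4 fell. *Plk1*, Polo-like kinase 1, had 10.7, 12.9 and 13.7 TPM in the embryonic samples and 1.89, 0 and 2.20 TPM in the adult samples. *Ttk*, the checkpoint kinase also known as MPS1, went from 3.27, 6.84 and 9.41 TPM to 0.549, 0 and 0.585 TPM. Both were low in each of the 3 adult samples. *Bub1*, which phosphorylates histone H2A at the centromere, had 31.0, 12.9 and 17.0 TPM against 0, 0 and 10.6 TPM, so that its adult level came from replicate 3 alone. Its log2 fold change of -3.14 ± 0.90 (SE, limma adjusted p = 0.0201) was called in the full set. The call was lost when any sample other than adult replicate 3 was left out, with adjusted p from 0.0501 to 0.0832, and without that replicate the adjusted p was 0.000612. *Aurka*, which matures centrosomes and spindle poles, had 14.6, 13.5 and 18.3 TPM against 0.549, 3.98 and 19.0 TPM. Adult replicate 3 stood above the 3 embryonic samples and the other two adult samples stood below them. The log2 fold change of -1.61 ± 0.79 (95% interval -3.39 to 0.17, limma adjusted p = 0.126) did not pass. Leaving out adult replicate 3 made it -2.56 (adjusted p = 0.00926).

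The checkpoint genes and the activator of the anaphase-promoting complex fell in 3 of 3 cases. *Cdc20*, the activator that starts anaphase, had 63.8, 64.5 and 73.6 TPM against 7.75, 4.09 and 12.4 TPM, with a log2 fold change of -3.02 ± 0.34 (SE, limma adjusted p = 0.000197). *Bub1b*, which encodes the checkpoint protein BUBR1, had 71.8, 40.4 and 119 TPM against 14.6, 6.15 and 28.8 TPM. *Mad2l1*, which encodes MAD2, the protein that holds CDC20 in check, had 17.7, 12.4 and 24.4 TPM against 4.88, 3.94 and 5.42 TPM. Its adult values were close together, at 21.7% to 29.8% of the embryonic mean, and the log2 fold change was -1.70 ± 0.35 (SE, limma adjusted p = 0.00452). *Bub1b* and *Mad2l1* therefore kept a larger share of their embryonic level than *Cdc20* in every adult sample.

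The chromosomal passenger complex, which corrects wrong attachments and directs cleavage, fell in all 4 subunits. *Aurkb*, its kinase (chr11:69045647-69051664, plus strand), had 36.9, 41.2 and 45.5 TPM in the embryonic samples and 0, 1.14 and 1.42 TPM in the adult samples. This was the largest fall of the 46 genes, -4.60 ± 0.42 on the log2 scale (SE, limma adjusted p = 5.778e-05). *Birc5*, which encodes survivin, had 70.6, 75.9 and 72.8 TPM against 0.923, 5.93 and 9.14 TPM. *Cdca8*, which encodes borealin, had 39.6, 54.2 and 56.7 TPM against 3.16, 3.27 and 5.02 TPM. *Incenp*, the scaffold that joins the kinase to the centromere, had 41.7, 44.7 and 60.4 TPM against 14.9, 10.04 and 7.99 TPM. It fell least in the complex, with a log2 fold change of -2.08 ± 0.28 (SE, limma adjusted p = 0.000491), and unlike most members it was highest among the adults in replicate 1 and lowest in replicate 3. Summed over the complex, the adult samples held 8.88%, 9.55% and 11.05% of the embryonic mean.

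**Figure D2:**
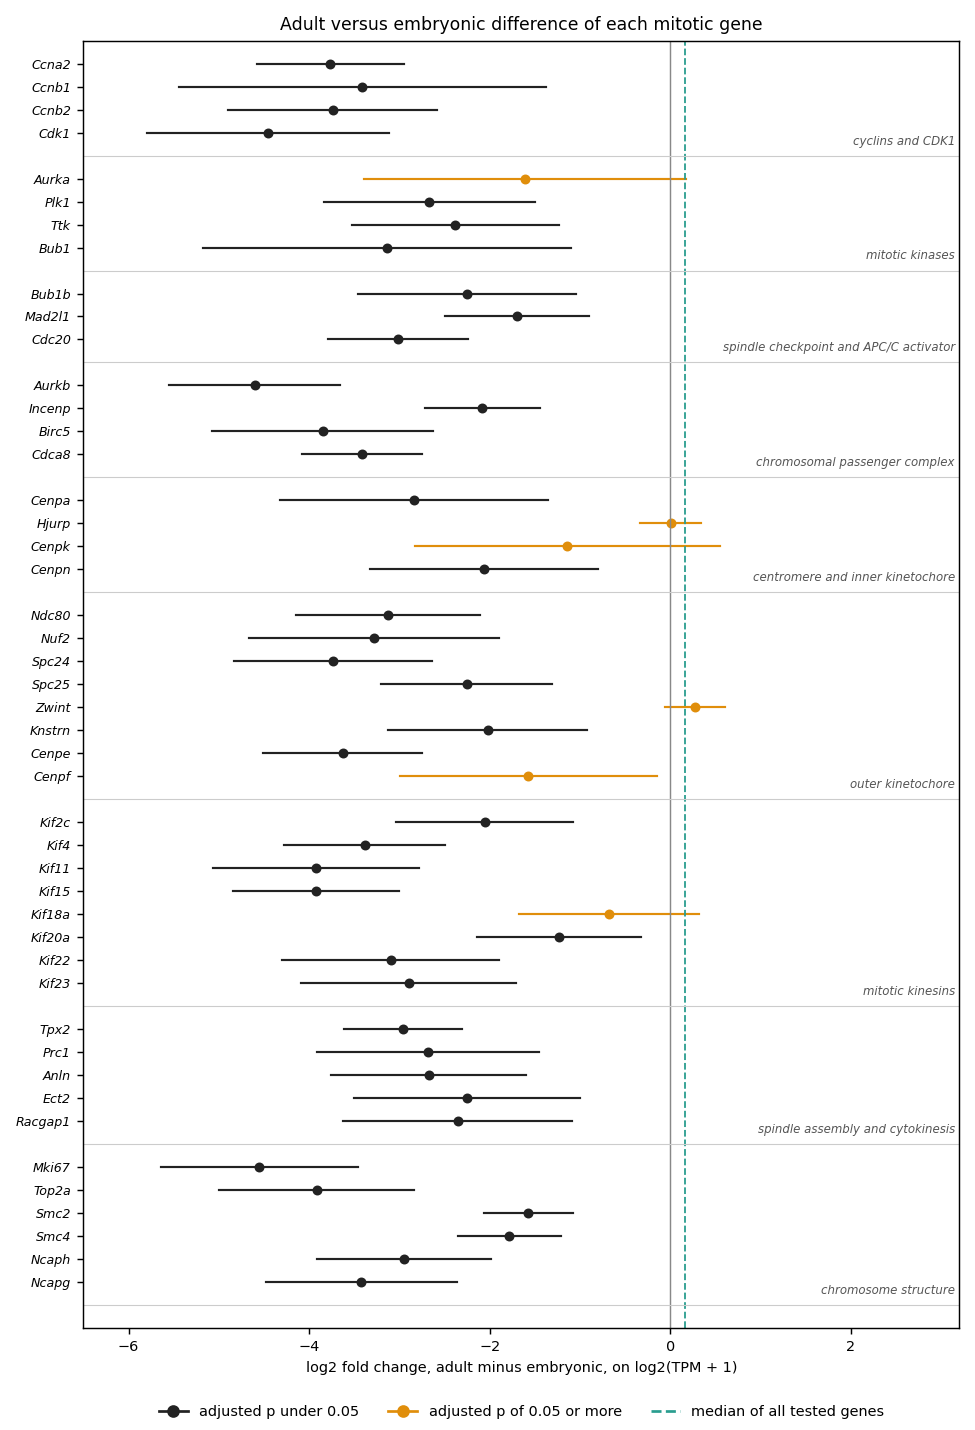
Log2 fold change of each mitotic gene, adult minus embryonic, on log2(TPM + 1), with its 95% limma interval. Black genes passed the adjusted p threshold of 0.05 and orange genes did not, and the dashed line is the median of all tested genes, 0.16. The intervals of *Hjurp* and *Zwint* are narrow and lie around or just above 0, whereas those of *Aurka* and *Cenpk* are wide.

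At the centromere and inner kinetochore 2 of 4 genes fell. *Cenpa*, the histone variant that marks centromeres, had 51.1, 68.2 and 86.8 TPM against 2.63, 6.72 and 29.5 TPM, a log2 fold change of -2.84 ± 0.65 (SE, limma adjusted p = 0.00754). *Hjurp*, the chaperone that deposits CENP-A (chr1:88262471-88277633, minus strand), had 76.2, 74.8 and 73.4 TPM in the embryonic samples and 69.3, 71.1 and 85.1 TPM in the adult samples. The stages overlapped, and the log2 fold change was 0.0014 ± 0.15 (95% interval -0.33 to 0.33, limma adjusted p = 0.995), a value that turned to -0.14 under median-of-ratios scaling. *Cenpa* and its chaperone thus stood in one range in the embryonic samples and apart in the adult samples. *Cenpn*, which reads CENP-A nucleosomes, had 3.77, 6.94 and 8.67 TPM against 0.579, 2.20 and 0 TPM. *Cenpk*, a subunit of the centromere-associated network, had 3.51, 7.08 and 3.48 TPM against 0.569, 0.147 and 7.39 TPM. As with *Aurka*, adult replicate 3 was above the embryonic range and the other two adult samples were below it, and the log2 fold change of -1.14 ± 0.74 (95% interval -2.83 to 0.55, limma adjusted p = 0.237) became -2.03 with an adjusted p of 0.0141 without that sample. The *Cenpn* call was lost without embryonic replicate 2 or 3, with an adjusted p of up to 0.0612.

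The outer kinetochore fell in 6 of 8 genes. The 4 subunits of the NDC80 complex, which grips microtubules, all fell. *Ndc80* had 17.7, 26.3 and 28.3 TPM against 0.925, 1.28 and 4.09 TPM, and *Nuf2* had 21.1, 16.2 and 17.5 TPM against 0.241, 0.126 and 4.44 TPM. *Spc24* had 20.3, 21.1 and 32.5 TPM against 0, 1.97 and 1.24 TPM, the largest fall of the role, with a log2 fold change of -3.74 ± 0.48 (SE, limma adjusted p = 0.00039). *Spc25* had 44.3, 43.7 and 47.1 TPM against 5.35, 6.0 and 19.0 TPM. The embryonic level of *Spc25* was above that of its 3 partners in every sample, and so was its adult level. *Knstrn*, a spindle and kinetochore adaptor, went from 5.26, 7.66 and 5.88 TPM to 2.04, 0.340 and 0.363 TPM. *Cenpe*, the kinesin that carries chromosomes to the spindle equator, went from 30.1, 20.03 and 28.7 TPM to 0.549, 1.31 and 1.85 TPM.

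*Cenpf* and *Zwint* of the outer kinetochore did not pass. *Cenpf*, a large protein of the kinetochore and nuclear envelope, had 8.92, 6.87 and 9.62 TPM against 1.39, 0.518 and 7.67 TPM. Its log2 fold change was -1.57 ± 0.63 (95% interval -2.998 to -0.15, limma adjusted p = 0.0695), and leaving out adult replicate 3 made it -2.30 (adjusted p = 0.00536). *Zwint*, which binds the KNL1 arm of the kinetochore (chr10:72654845-72674964, plus strand), had the highest embryonic level of the 46 genes, at 212, 256 and 254 TPM, and the adult samples had 264, 270 and 339 TPM. All 3 adult values were above the embryonic ones, but the difference did not pass, with a log2 fold change of 0.27 ± 0.14 (95% interval -0.06 to 0.60, limma adjusted p = 0.156). No stretch of 50 or more bases of the *Zwint* or *Hjurp* transcript aligned to another gene at 95% identity. Together *Hjurp* and *Zwint* weighed heavily on a sum over the 46 genes, which was 2140, 2239 and 2555 TPM in the embryonic samples and 535, 503 and 915 TPM in the adult samples. Over the other 44 genes the adult sums were 201, 162 and 491 TPM, or 10.1%, 8.11% and 24.6% of the embryonic mean.

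Of the 8 mitotic kinesins 7 fell, and in all 8 the adult values lay below the embryonic ones. *Kif11*, the motor that pushes spindle poles apart, had 36.2, 33.8 and 48.4 TPM against 0.281, 1.70 and 4.23 TPM, a log2 fold change of -3.93 ± 0.50 (SE, limma adjusted p = 0.000369). *Kif15*, which shares in that task, had 15.6, 22.5 and 20.5 TPM against 0.466, 0 and 0.625 TPM. *Kif4*, the mouse counterpart of the chromokinesin KIF4A, went from 13.4, 10.97 and 14.4 TPM to 0.202, 0.332 and 0.446 TPM. In *Kif4* and *Kif15* no adult sample held more than 3.45% of the embryonic mean. *Kif22*, another chromokinesin, went from 24.8, 24.1 and 25.7 TPM to 0.412, 1.96 and 5.55 TPM. *Kif23*, the motor of the centralspindlin complex, went from 20.1, 32.9 and 32.8 TPM to 1.08, 2.24 and 7.66 TPM. *Kif2c*, which takes microtubules apart at kinetochores, went from 5.31, 10.6 and 12.2 TPM to 1.42, 1.46 and 1.26 TPM. The adult values of *Kif2c* were, in ratio, the closest together of the kinesins.

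*Kif20a*, a motor of the cleavage furrow, had 8.77, 9.19 and 10.95 TPM against 2.70, 2.58 and 5.96 TPM. Its log2 fold change of -1.23 ± 0.40 (SE, limma adjusted p = 0.0335) was the smallest among the genes that passed. Like that of *Bub1*, its call was lost when any sample other than adult replicate 3 was left out, with adjusted p from 0.0783 to 0.105, and without that replicate the adjusted p was 0.0132. Its exons share 29.3% of their bases with *Cdc23* on the opposite strand. No source used here says that counting was by strand, so part of its reads may not be told from those of *Cdc23*. Transcripts of other members also aligned in part to other genes at 95% identity or more. The aligned share was 30.2% in *Prc1*, 22.9% in *Ndc80*, 20.8% in *Ncapg*, 17.9% in *Racgap1*, 17.3% in *Ccna2* and 16.7% in *Kif4*. Part of their adult remainder may likewise come from other genes, which was not tested. *Kif18a*, which shortens microtubules at their plus ends, had the lowest embryonic level, at 3.26, 1.93 and 2.77 TPM, against 0.887, 1.58 and 1.32 TPM in adult chondrocytes. Its log2 fold change of -0.68 ± 0.44 (95% interval -1.68 to 0.31, limma adjusted p = 0.232) did not pass.

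Spindle assembly and cytokinesis genes fell in 5 of 5 cases. *Tpx2*, which activates Aurora A and nucleates spindle microtubules, had 124, 126 and 134 TPM against 11.2, 12.7 and 26.0 TPM, a log2 fold change of -2.97 ± 0.29 (SE, limma adjusted p = 8.382e-05). *Prc1*, which bundles the microtubules of the central spindle, had 98.4, 104 and 156 TPM against 17.97, 6.37 and 42.8 TPM. *Anln*, the scaffold anillin, had 18.8, 25.8 and 23.2 TPM against 1.64, 1.44 and 6.62 TPM. *Racgap1*, the centralspindlin partner of *Kif23*, had 28.6, 36.5 and 46.8 TPM against 8.57, 1.79 and 13.7 TPM. *Ect2*, the exchange factor that activates RhoA at the furrow, had 22.9, 34.4 and 28.2 TPM against 4.13, 1.93 and 14.3 TPM, with a log2 fold change of -2.25 ± 0.55 (SE, limma adjusted p = 0.0102). In each of the 5 genes adult replicate 3 was the highest adult sample. Without embryonic replicate 2 the call of *Ect2* was lost, with an adjusted p of 0.0506.

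Genes of chromosome structure fell in 6 of 6 cases. *Mki67*, which encodes the proliferation marker Ki-67 on the surface of mitotic chromosomes, had 101, 83.3 and 101 TPM against 2.05, 1.32 and 8.62 TPM. Its log2 fold change of -4.55 ± 0.48 (SE, limma adjusted p = 0.000135) was next in size to that of *Aurkb*. *Top2a*, the topoisomerase that untangles sister chromatids, had 104, 95.7 and 125 TPM against 5.003, 2.70 and 15.6 TPM. The condensin subunits were uneven. *Ncaph* went from 43.7, 40.9 and 57.9 TPM to 3.93, 2.94 and 11.3 TPM, and *Ncapg* from 10.6, 11.9 and 21.9 TPM to 0, 0.434 and 0.927 TPM. The core ATPase subunits kept more: *Smc4* went from 155, 161 and 142 TPM to 36.8, 33.2 and 67.3 TPM, and *Smc2* from 70.1, 50.4 and 81.5 TPM to 23.1, 20.3 and 21.3 TPM. The fall of *Smc2*, -1.57 ± 0.22 on the log2 scale (SE, limma adjusted p = 0.00055), left 30.1% to 34.3% of the embryonic mean in each adult sample. *Ncaph* and *Ncapg* belong to condensin I, whereas *Smc2* and *Smc4* are shared with condensin II. The other condensin subunits were uneven too. Their adult mean was 41.0% of the embryonic mean in *Ncapd2*, 30.5% in *Ncapd3*, 11.5% in *Ncapg2* and 104% in *Ncaph2*. A difference between the complexes was not tested.

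The embryonic samples differed little. The ratio of the highest to the lowest embryonic value had a median of 1.43 over the 46 genes, stayed under 2 in 39 of them, and reached 2.94 in *Bub1b*. The adult samples differed more, and in one direction. Adult replicate 3 held the highest adult value in 39 of the 46 members, where it did so in 37.2% of all tested genes and in 36.5% of the 3397 tested genes whose adult values were all below the embryonic ones. Adult replicate 1 was highest in 3 members, *Incenp*, *Knstrn* and *Smc2*. Adult replicate 2 was highest in 4, *Cenpn*, *Spc24*, *Kif2c* and *Kif18a*, and was alone the lowest in 24. The median member held 7.75% of its embryonic mean in adult replicate 1, 6.15% in replicate 2 and 21.3% in replicate 3. Members under 10% of their embryonic mean numbered 27, 34 and 10 in the 3 samples, and those above 100% numbered 1, 1 and 4. The 4 in replicate 3 were *Aurka*, *Cenpk*, *Hjurp* and *Zwint*. Without adult replicate 3, 43 members were lower, *Aurka*, *Cenpk* and *Cenpf* being added.

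**Figure D3:**
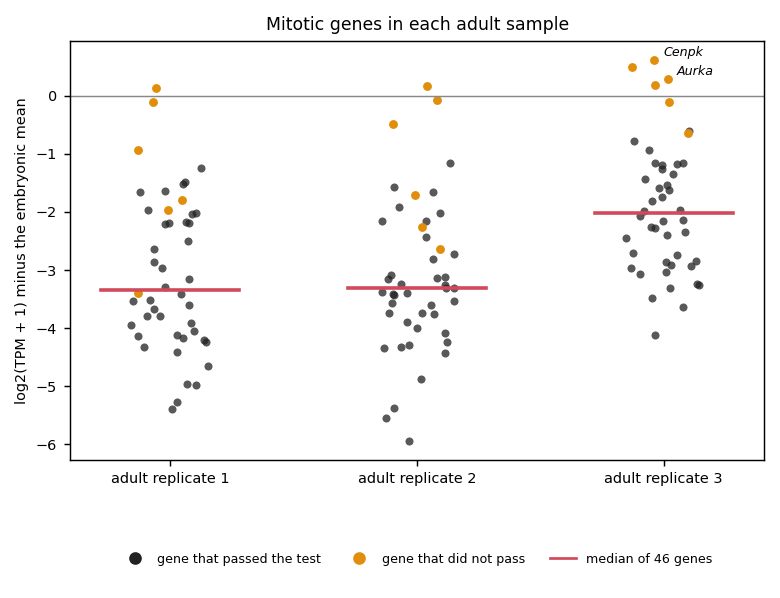
Each mitotic gene in each adult sample, as its log2(TPM + 1) minus the mean of the 3 embryonic samples, with black for genes that passed the test, orange for those that did not, and a red line at the median of the 46. Points are spread sideways for clarity. Adult replicate 3 lies higher than replicates 1 and 2, and *Cenpk* and *Aurka* lie above 0 there.

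The roles kept their embryonic sum unevenly. The outer kinetochore, with *Zwint*, held 69.8%, 71.6% and 96.1% of the embryonic mean in adult replicates 1, 2 and 3, and the centromere and inner kinetochore, with *Hjurp*, 47.3%, 51.8% and 78.9%. The mitotic kinases held 5.46%, 7.28% and 59.3%, the cyclins with CDK1 4.46%, 1.61% and 15.8%, the kinesins 5.06%, 8.06% and 18.4%, the checkpoint genes with *Cdc20* 16.8%, 8.73% and 28.7%, the spindle assembly and cytokinesis genes 13.0%, 7.21% and 30.8%, and the chromosome structure genes 14.6%, 12.5% and 25.8%. The kinase sum of replicate 3 rested on *Aurka* and *Bub1*. The passenger complex was the role whose 3 adult sums lay closest together.

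Markers of other cells were checked beside these values. The 8 chondrocyte markers were above 0 in all 6 samples, but 5 were lower and 2, *Sox9* and *Comp*, higher in adult chondrocytes by limma. *Sox9* was at 392 to 465 TPM in embryonic samples and 589 to 901 TPM in adult samples, whereas *Matn3* went from 181 to 234 TPM to 1.11 to 3.65 TPM and *Col9a1* from 1913 to 1946 TPM to 27.2 to 64.3 TPM. Their summed level over 8 genes was 21772 to 23556 TPM in embryonic and 9325 to 12324 TPM in adult samples. The defining leukocyte gene *Ptprc* was at 0 to 0.0613 TPM in embryonic and 0 to 2.29 TPM in adult samples. Of 9 neutrophil and myeloid progenitor genes 4 were high enough to test and 2, *S100a8* and *S100a9*, were higher in the adult samples by limma. *S100a8* had 36.4, 0 and 41.5 TPM and *S100a9* 78.4, 0 and 32.4 TPM in the adult samples (limma adjusted p = 0.0469 and 0.0482). Both genes were at 0 in each embryonic sample and passed the filter on low values through adult values alone. Both calls were lost when any sample other than adult replicate 2 was left out, with adjusted p up to 0.164 and 0.166. Their list summed to 0 TPM in each embryonic sample and to 139, 5.55 and 74.6 TPM in the adult samples, with *Prtn3* and *Ms4a3* at 0 in all 6. The 9 leukocyte genes summed to 1.26 to 5.56 TPM and to 57.1, 3.01 and 14.5 TPM, and 0 of the 5 tested passed by limma, 1 being higher at an unadjusted p under 0.05. Erythroid genes summed to 1.06 to 133 TPM in embryonic samples, the highest in replicate 1, and to 38.4, 3.67 and 23.6 TPM in adult samples. Endothelial genes summed to 10.9 to 34.1 TPM and 5.12 to 13.9 TPM, and their members went both ways. *Pecam1* was at 1.29 to 1.75 TPM in embryonic and 2.79 to 6.87 TPM in adult samples, and did not pass. *Tek*, at 9.21 to 19.0 TPM and 0.121 to 0.889 TPM, was the 1 endothelial gene of 3 tested that was lower by limma. With an adult mean of 0.60 TPM, *Tek* passed the filter on low values through embryonic values alone. Skeletal muscle genes summed to 66.1 to 70.6 TPM and 1.79 to 9.95 TPM, and keratinocyte genes to 3.41 to 5.57 TPM and 2.29 to 5.30 TPM. Osteoblast genes summed to 15.7 to 51.8 TPM and to 346, 254 and 404 TPM, and 4 hypertrophic chondrocyte genes to 49.0 to 126 TPM and to 877, 980 and 1132 TPM. Within the osteoblast list *Ibsp* and *Bglap* were higher and *Dmp1* lower in adult chondrocytes. *Bglap* was at 0 in each embryonic sample and passed the filter on low values through adult values alone. The hypertrophic sum was nearly all *Col10a1*, at 814, 949 and 1096 TPM in the adult samples. *Panx3* was lower (limma adjusted p = 0.0036) and passed the filter on low values through embryonic values alone, with an adult mean of 0.19 TPM. *Ihh* was at 0 in each adult sample and *Mef2c*, at 29.1 to 50.1 TPM and 30.3 to 63.2 TPM, did not pass. The part of these cells in the mitotic gene values was not tested.

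Of 119 other mitotic genes listed, 118 were tested, 62 were lower and 9 higher, with a median log2 fold change of -0.99. The shares over all tested genes, 21.4% lower and 23.9% higher, stand beside these counts and those of the groups that follow. Among 32 other centromere and kinetochore genes 16 were lower and 3 higher, among 28 other spindle and centrosome genes 17 and 3, and among 18 tested entry kinases and phosphatases 10 and 1. Of 16 cohesin genes and regulators 10 were lower, with a median of -0.50, and the anaphase-promoting complex with its E2 enzymes gave 6 lower and 2 higher of 20 with a median of -0.26, a count of lower genes near the share over all tested genes. Of the 4 remaining condensin subunits 3 were lower. Some lower genes in these counts had an adult mean under 1 TPM and passed the filter on low values through embryonic values alone. In the centromere and kinetochore group these were *Cenph*, *Cenpm*, *Cenpw*, *Knl1*, *Ska1*, *Ska3*, *Zwilch* and *Kntc1*. In the other groups they were *Kif18b*, *Haspin*, *Melk*, *Cdca5*, *Sgo1*, *Sgo2a* and *Espl1*.

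The 5 largest falls among these 118 genes were in kinetochore and kinase genes. Of these, *Cenph*, *Kntc1*, *Zwilch* and *Ska3* passed the filter on low values through embryonic values alone. Their adult means were 0.163, 0.744, 0.297 and 0.357 TPM. *Cenph*, a partner of *Cenpk* in the centromere network, went from 23.2, 19.3 and 18.9 TPM to 0, 0.488 and 0 TPM, a log2 fold change of -4.23 ± 0.39 (SE, limma adjusted p = 6.74e-05). *Cenpk* stood at 7.39 TPM in adult replicate 3, where *Cenph* was at 0. *Pbk*, a mitotic kinase, fell by 4.22 on the log2 scale, *Kntc1* and *Zwilch*, subunits of the complex that brings dynein to kinetochores, by 3.99 and 3.85, and *Ska3*, of the complex that tracks microtubule ends, by 3.89. Of the 9 genes that rose, *Pttg1* rose most. *Pttg1*, which encodes securin, had 10.7, 17.7 and 7.09 TPM in the embryonic samples and rose to 39.7, 48.1 and 52.3 TPM, a log2 fold change of 1.97 ± 0.32 (SE, limma adjusted p = 0.00136). *Numa1*, a spindle pole and nuclear matrix protein, rose by 1.09, *Mad2l1bp*, which silences the checkpoint by way of MAD2, by 1.40, *Nek7* by 0.95 and *Haus8* of the augmin complex by 0.82. The call of *Mad2l1bp* (limma adjusted p = 0.0432) was lost when any sample other than embryonic replicate 2 was left out, with adjusted p up to 0.141, and that of *Haus8* (0.0434) when any other than adult replicate 3 was, with adjusted p up to 0.137.

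Of 25 tested regulators that transcribe or repress mitotic genes, 8 were lower and 3 higher, beside 21.4% and 23.9% of all tested genes, or 8 and 1 under median-of-ratios scaling and 8 and 4 when the 20 highest genes were left out of the scaling. The atypical repressors *E2f7* and *E2f8* fell furthest of the 25. *E2f7* passed the filter on low values through embryonic values alone, with an adult mean of 0.486 TPM. *E2f7* went from 46.8, 44.0 and 68.0 TPM to 0, 1.46 and 0 TPM (log2 fold change -5.29 ± 0.45 SE, limma adjusted p = 3.99e-05) and *E2f8* from 48.4, 56.9 and 54.5 TPM to 3.54, 0.424 and 0.139 TPM. *Foxm1*, an activator of G2 and M phase genes, went from 40.5, 35.7 and 64.8 TPM to 1.27, 1.66 and 9.21 TPM, and it was highest among the adults in replicate 3, as most of the 46 genes were. *Mybl2*, which encodes B-MYB, went from 21.0, 24.9 and 29.2 TPM to 5.65, 3.06 and 1.24 TPM, and *E2f2* from 18.7, 16.3 and 19.7 TPM to 5.02, 1.49 and 0.595 TPM. In *E2f8*, *Mybl2* and *E2f2* adult replicate 3 was instead the lowest. *Rbl2*, which encodes the p130 pocket protein of the DREAM complex, rose from 16.1, 9.45 and 14.6 TPM to 32.6, 30.8 and 28.01 TPM, a log2 fold change of 1.16 ± 0.26 (SE, limma adjusted p = 0.0072). *Trp53* and *Tfdp1* rose by 0.53 and 0.40. The call of *Trp53* was lost without embryonic replicate 1 or 2 or adult replicate 3, with limma adjusted p up to 0.0929, and that of *Tfdp1* without any sample other than adult replicate 2, with adjusted p up to 0.125.

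**Figure D4:**
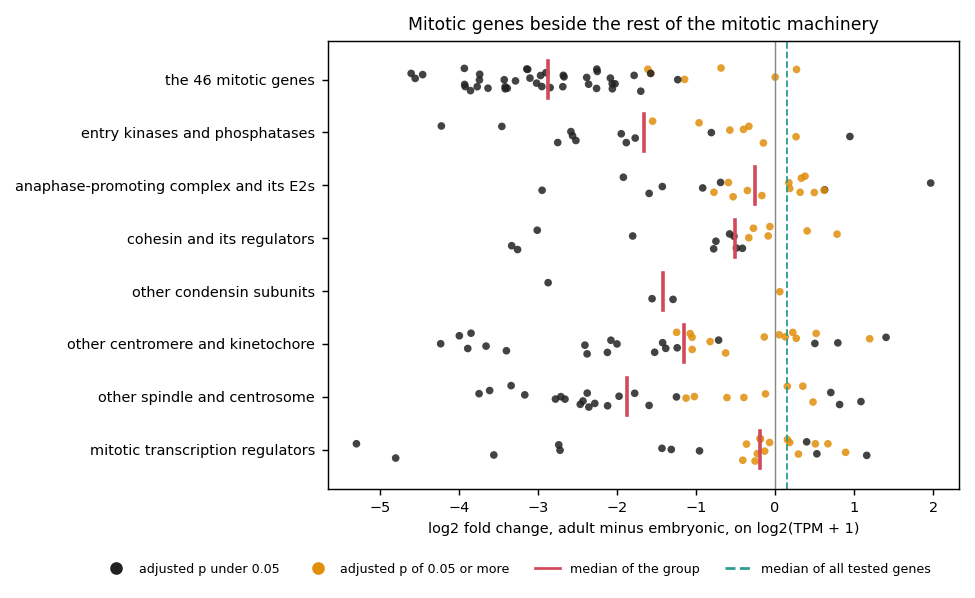
Log2 fold change, adult minus embryonic on log2(TPM + 1), of the 46 mitotic genes (top row), of the other mitotic genes by group and of the regulators. Each point is a gene, black where the adjusted p was under 0.05 and orange otherwise, the red line is the group's median and the dashed line the median of all tested genes. The median of the 46 genes is -2.87, and that of the anaphase-promoting complex group is -0.26.

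Promoter letters played no part in the list. RefSeq windows of 300 bases, 250 before to 50 after the start, were at hand for 39 of the 46 members and for 10292 of the tested genes, and both strands were searched. A gene with several windows was counted once, as holding the letters if any of its windows did. The letters TTTGAA stood in 28 of the 39 members (71.8%), against 14.3% of the tested genes. Counted by single window, they stood in 17.9% of all 32851 windows of the table. Within 50 bases of the start they stood in 26 (66.7%), against 3.8%. CCAAT stood in 29 (74.4%), against 42.8% of tested genes and 37.4% of all windows, and both in 24 (61.5%), against 5.76%. The variant TTCGAA was found in 3 (7.69%, against 2.5%), the E2F-type letters TTCCCGC in 3 (7.69%, against 9.72%) and TTGGCGC in 7 (17.9%, against 5.05%), and TATAAA in 2 (5.13%, against 9.01%). TTGGCGC shares letters with ATTGG where an A stands before it. The median GC content was 58.3%, against 61.0%.

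The position of TTTGAA and its distance from CCAAT varied between members, and this distance was measured in members only. The most downstream TTTGAA began before the start in 11 members and at or after it in 17. In the 24 members with a CCAAT box upstream of it, the distance between them ran from 9 to 201 bases with a median of 36, and lay between 25 and 45 bases in 11. Among the other mitotic genes with a window, 52 were lower in adult chondrocytes and 47 were not. TTTGAA stood within 50 bases of the start in 40.4% of the lower genes and in 12.8% of the rest. In tested genes as a whole it stood within 50 bases of the start in 6.65% of genes lower and 2.85% of genes higher in adult, and anywhere in the window in 15.5% and 14.5%. The members and other mitotic genes that fell were not taken out of the lower genes. Part of the 6.65% is therefore these same genes. Of the members with a window that were lower, 25 of 33 (75.8%) held TTTGAA. Of the members that were not called, 3 of 6 held it, namely *Aurka*, *Hjurp* and *Cenpf*. *Hjurp*, flat between the stages, thus held both letters, *Zwint* held CCAAT without TTTGAA, and *Kif18a* held neither. *Ccnb1*, *Birc5*, *Nuf2*, *Mad2l1*, *Ncaph*, *Knstrn*, *Cenpe* and *Bub1* fell and had no TTTGAA in the window. A match is a description of letters, not of binding.

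**Figure D5:**
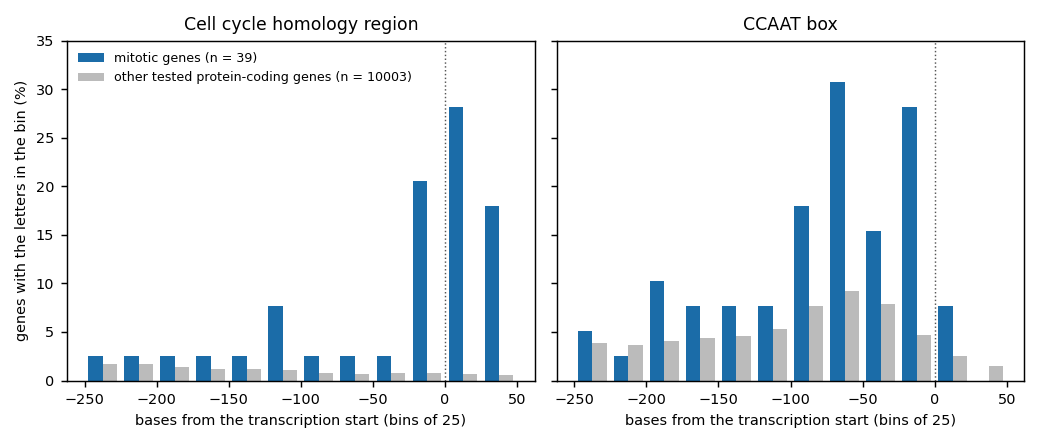
Share of genes with the cell cycle homology region letters (left) or the CCAAT box letters (right) in each bin of 25 bases, by distance from the transcription start on the horizontal axis, for 39 mitotic genes (blue) and 10003 other tested protein-coding genes (grey). The left panel peaks in the bin from 0 to 25 bases after the start, at 28.2% of the mitotic genes, and the right panel in the bin from 75 to 50 bases before it, at 30.8%.

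Depth behind single values could not be read from the deposited values, since TPM has one total in every sample and carries no read count. No counting interval is therefore given. Per the paper, its supplement lists numbers of total and mappable reads, which were not used here. Embryonic samples listed 7314 to 7656 genes at 0 and adult samples 7570 to 8294, and the 20 highest genes held 10.7% to 11.1% and 14.6% to 17.7% of the TPM. A listed 0 may be a failed estimate. It occurred in 9 of the 46 members in at least one adult sample, in *Bub1* in 2 of them, and in no member in all 3.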

How the data were processed

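RNA was sequenced from 3 embryonic and 3 adult samples in single-end reads of 50 bases. Per the methods, random and poly(T) primed cDNA was made with Nugen Ovation V2 reagents, whereas the labels name a Kapa mRNA-Seq kit. The authors mapped reads to GRCm38, estimated levels with RSEM (version not given in the sources used here) and deposited log2 values, log2(TPM + 1), per gene. All 6 columns were used, and 21902 of 22032 identifiers had a symbol in GENCODE M21.

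Genes averaging 1 TPM or more entered limma 3.58.1 under R 4.3.3 (lmFit, eBayes with trend, pseudocount 1, Benjamini-Hochberg adjusted p under 0.05), a procedure first tested on simulated data. EBSeq, named in the methods, needs counts and was not used here. The 46 genes, the other lists, the tests and the alternatives were chosen with earlier results of these data known. Every member was described, with full statistics for the largest and smallest change of each role and for members that did not pass. Of the other mitotic genes and regulators, the 5 largest changes in each direction past the threshold were named. The alternatives were a pseudocount of 0.1, other filters, scalings, moderation and threshold, a replicate block and each sample left out. Promoter windows came from RefSeq on GRCm38.p6, and in 33 of the 39 the bases after the start were found in a GENCODE transcript of the gene. Transcripts were compared with BLAST+ 2.17.0. Plots were drawn with matplotlib 3.10.9 and tables made with pandas 2.3.3 and numpy 2.4.6 under Python 3.11.15.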

Additional observations from a re-analysis of the deposited data

How the results depend on the processing

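The number of the 46 mitotic genes lower in adult chondrocytes, 40 by limma, ran from 35 to 43 when 1 sample was left out, with the lowest count without embryonic replicate 2 and the highest without adult replicate 3. It was 31 with no filter on low values, 35 at an adjusted p under 0.01, 37 of the 41 members with a mean of at least 5 TPM, and 40 or 41 under the other alternatives, and 0 members were higher under any of them. In 31 members the call held in every alternative that tested them. The 9 calls lost with no filter were *Ccnb1*, *Bub1*, *Bub1b*, *Cenpa*, *Cenpn*, *Kif20a*, *Prc1*, *Ect2* and *Racgap1*, when 22032 genes were adjusted for instead of 13125. The median log2 fold change of the members ran from -3.34 to -2.53 with 1 sample left out and was -3.26 with a pseudocount of 0.1. *Hjurp* changed sign, at -0.14 under median-of-ratios scaling, and its leave-one-out values ran from -0.0899 without adult replicate 3, through -0.012 without embryonic replicate 3, to 0.056 without adult replicate 1. That scaling moved the median of all tested genes from 0.16 to 0.02.

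Of the other mitotic genes 38 rather than 62 were lower with no filter. Instead of 9, the number higher was 4 under median-of-ratios scaling, 5 in eBayes without trend, 3 at an adjusted p under 0.01 and 4 to 8 with 1 sample left out. Instead of 3, the number of regulators higher was 1 under each of those 3 settings and 1 to 3 with 1 sample left out. The cause of these shifts was not tested.

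Embryonic and adult samples share replicate numbers, but same-numbered samples did not deviate together (r = -0.00884, -0.0169 and -0.0223 across genes). Differently numbered samples gave r from -0.00167 to 0.0156. These values show no pairing by number, but they cannot tell whether equal numbers shared a preparation or a sequencing run. With the replicate number as a block 41 members were lower, *Cenpf* being added with a limma adjusted p of 0.0489. Read depth was not taken into account, and 3 samples a stage limit the precision of each value.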
